A study of Homo sapiens with 9 samples.

Results

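Clustered histone genes are the genes of the replication-dependent histones, which lie together in the genome and carry symbols that begin with HIST1H, HIST2H, HIST3H or HIST4H. They were chosen by symbol alone, and 73 of the 26485 genes in the deposited tables were members. By the family in the symbol, 6 members were of linker histone H1, 18 of H2A, 20 of H2B, 14 of H3 and 15 of H4. Not all encode a protein. GENCODE v44 lists HIST1H2APS1, of H2A, and HIST2H2BC, of H2B, as pseudogenes. HIST2H2BA, of H2B, has the current symbol H2BP1 and no GENCODE gene. It is among the H2B members tested below. The RNA came from MDA-MB-231, a long-established line of human breast cancer cells of the triple-negative kind, which lack the oestrogen and progesterone receptors and excess HER2. Of 9 libraries, 3 came from cells stably expressing a nonspecific (NS) shRNA, 3 from cells stably expressing ASAH1 shRNA #1 and 3 from cells stably expressing ASAH1 shRNA #2, and the sources call them biological replicates. ASAH1 encodes acid ceramidase, a lysosomal enzyme that breaks down ceramide, and the study used the hairpins to ask how its loss changes these cells. No group carried any further agent or allele in the labels.

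Cells wrap their DNA around an octamer of H2A, H2B, H3 and H4, and H1 binds the DNA between octamers. Most of this protein is made in S phase from clustered genes without introns, and their mRNAs are the main animal mRNAs that end in a stem-loop in place of a poly(A) tail. The stem-loop-binding protein SLBP holds that end, and a complex that includes the U7 RNA cuts the transcript just after it. A few clustered genes, among them HIST1H2AC, HIST1H2BD, HIST1H2BK and HIST2H2BE, are also known to give polyadenylated transcripts when transcription runs past the stem-loop. The sources differ on how RNA was selected. The extraction protocol and the methods describe oligo-dT beads, which hold RNA by its poly(A) tail, whereas the series design names removal of ribosomal RNA with random priming.

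The stem-loop was searched in the genome sequence of each member, because it is the end that sets these mRNAs apart. All 73 members matched a RefSeq entry and 72 matched a GENCODE v44 gene. Of these 72, 56 lay on chromosome 6, 15 on chromosome 1 and 1 on chromosome 12. A paired stem-loop of 16 bases that fits the histone consensus was found in 71 members. The 4 forms below, read 5′ to 3′ from hg38, are shown because they include the commonest form and the form of H4, with the stem in capitals and the loop in lower case.
HIST1H1C: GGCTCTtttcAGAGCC
HIST1H2BK: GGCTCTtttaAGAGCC
HIST1H2AG: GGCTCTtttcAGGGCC
HIST1H4C: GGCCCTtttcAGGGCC

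The form of HIST1H1C (chr6:26055744-26055759, minus strand) was held by 40 members, 4 of H1, 13 of H2A, 12 of H2B and 11 of H3. The form of HIST1H2BK (chr6:27146366-27146381, minus strand) was held by 10 members, and that of HIST1H2AG (chr6:27133515-27133530, plus strand) by 2. The form of HIST1H4C (chr6:26104317-26104332, plus strand) was held by 10 members, and each of them was an H4 gene. In 52 members every transcript model ended within 100 bases of the stem-loop, whereas in 19 members at least 1 model of GENCODE v44 or RefSeq ran further. HIST1H2AC, HIST1H2BC, HIST1H2BD, HIST1H2BJ, HIST1H2BK, HIST1H4H and HIST2H2BE belonged to the 19, and HIST1H1C to the 52.

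Many members stand head to head with their starts close together, and 13 of 14 such pairs joined an H2A with an H2B gene. The 250 bases before the start of HIST1H2BK on chr6:27146859-27147108 (GRCh38.p14, minus strand, from RefSeq) are printed because they reach back to the start of its H2A partner HIST1H2AH, so that both genes share them. Capitals mark ATTTGCAT (the octamer known from H2B promoters), TATAAA and CCAAT, each searched on both strands.
HIST1H2BK: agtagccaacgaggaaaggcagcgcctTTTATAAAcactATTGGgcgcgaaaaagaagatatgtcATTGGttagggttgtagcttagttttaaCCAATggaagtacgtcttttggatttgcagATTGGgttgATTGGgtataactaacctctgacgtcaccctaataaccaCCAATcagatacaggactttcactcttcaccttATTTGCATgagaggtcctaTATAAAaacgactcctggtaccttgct

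Here the octamer lay 46 bases and a TATAAA 27 bases before the start. In windows of 250 bases before to 50 after the start, the octamer was found in 14 of 18 H2B promoters, 11 of 16 H2A promoters, 1 of 12 H3 promoters and in neither the 6 H1 nor the 13 H4 promoters. The 1 H3 window, that of HIST1H3D, is the same stretch as the window of the H2A gene HIST1H2AD (chr6:26199244-26199543, minus strand). Its match is therefore not a separate one. The windows of head-to-head H2A and H2B genes also overlap, such as those of HIST1H2BC (chr6:26123877-26124176) and HIST1H2AC (chr6:26123922-26124221). With both strands searched, 1 site can count for both partners, so the H2A and H2B counts are not separate from each other. Of all 35116 promoters of the same length, 1.77% held the octamer. CCAAT was found in each of the H1, H2A, H2B and H3 promoters and in 3 of 13 H4 promoters, against 34.6% of all promoters. These matches describe the letters only.

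Reads on genes came to between 23806003 and 49659106 per library. The targeted gene ASAH1 was lower with each hairpin, at -1.76 on the log2 scale for shRNA #1 (limma, SE, the standard error, 0.05, adjusted p = 9.49e-09) and -2.63 for shRNA #2 (limma, SE 0.06, adjusted p = 5.42e-10). VIM, CD44, EGFR and AXL, markers of this line, had at least 2667 reads in every library, and ESR1 and PGR had at most 2. ERBB2 had 1530 to 3581 reads. Among markers of other cell types, PTPRC, CD3E and ALB had at most 8 reads, PECAM1 39 to 102 and COL1A1 545 to 965.

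One library stood apart for histone genes. In ASAH1 shRNA #1 replicate 1, also the shallowest library, 27 of the 33 members tested in that comparison had more than 3 times the mean normalised count of the other two shRNA #1 libraries, with a median ratio of 8.27 over the 33. Only 0.418% of the 14340 genes with such a ratio did so, which is 60 genes, and the median ratio over the 14340 was 0.999. Of the 33 members, 8 reached the mean of 10 needed for a test only through shRNA #1 replicate 1. Their high ratios follow in part from that selection, so the count of 27 and the median of 8.27 are a description. Besides the 27 members, the 60 genes held 10 of the 10 tested RNAs from a list of other RNAs without a poly(A) tail, and the remaining 23 included the spliceosomal RNA genes RNU2-2P, RNU4-1 and RNU4-2, named after their values were seen. RN7SK, an RNA that restrains transcription elongation, had 773, 2721 and 1129 reads with NS shRNA, 15430, 986 and 499 with shRNA #1, and 112, 61 and 222 with shRNA #2. RMRP, the RNA of the RNase MRP enzyme, had 294, 1248 and 617 reads with NS shRNA, 8919, 353 and 175 with shRNA #1, and 53, 31 and 73 with shRNA #2. Both RNAs were highest in shRNA #1 replicate 1, higher in NS shRNA replicate 2 than in the other NS libraries, and lowest with shRNA #2. With shRNA #1 compared with NS shRNA, none of the 10 listed RNAs passed in limma, none had an unadjusted p below 0.05, edgeR called 1 higher and DESeq2 0, and without replicate 1 limma called 4 lower. NS shRNA replicate 2 was the highest of the 3 NS shRNA libraries for 25 of the 33 members, at a median of 1.67 times the mean of the other two, against 0.998 over all genes tested. These RNAs were named after their values were seen, and their part in the histone values was not tested. The tests below that rest on shRNA #1 are therefore given with and without its replicate 1.

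**Figure D1:**
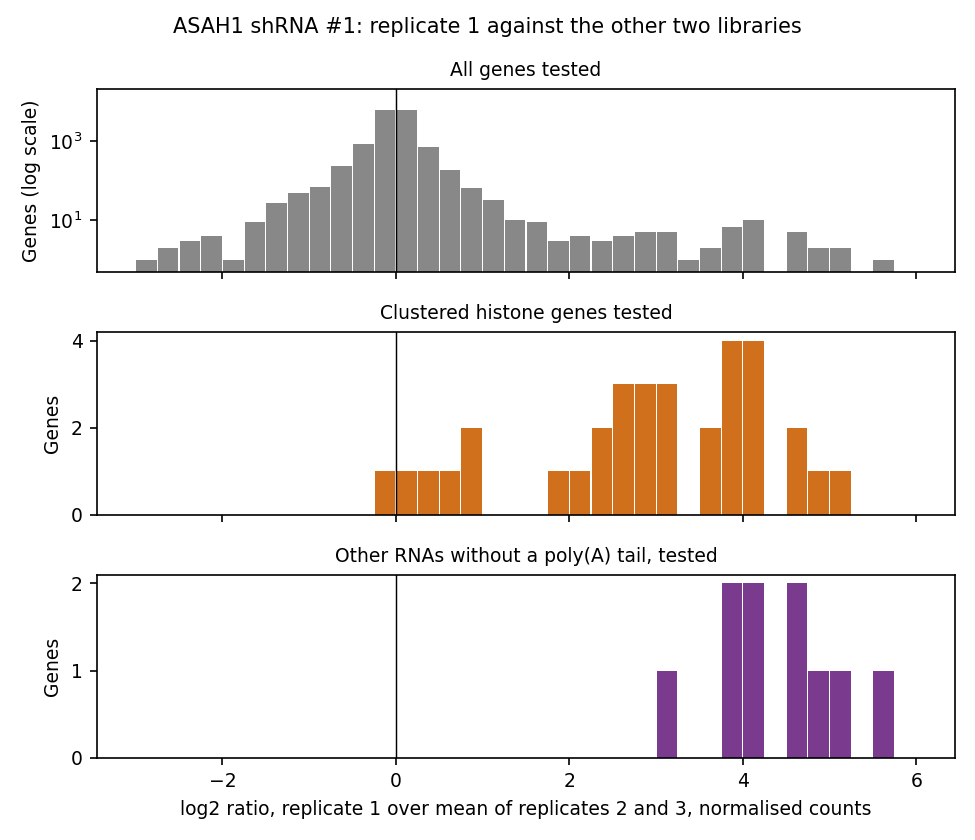
Number of genes (vertical axis, log scale in the top panel) by the log2 ratio of the normalised count in ASAH1 shRNA #1 replicate 1 to the mean of replicates 2 and 3 (horizontal axis), for all genes tested, for the clustered histone genes and for 10 other RNAs without a poly(A) tail. All genes centre on a ratio near 1, 27 of 33 histone genes lie above 3 times, and the other RNAs run from 9.19 to 52.8 times. Of the 33 histone genes, 8 entered the test only through replicate 1.

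The level of the members differed greatly. 16 members were listed at 0 in all 9 libraries, and a further 11 had 3 reads or fewer in each. H3F3A, a histone gene outside the clusters that cells use widely, was also listed at 0, so a listed 0 is not read as a lack of RNA. Of the 8 members that shared over 90% of their 76-base windows with other members, 6 were listed at 0, among them the HIST2H2AA3 and HIST2H2AA4 copies, and reads of such copies cannot be assigned with certainty. The other 10 of the 16 listed at 0 shared no such window with another member. HIST1H2AM shared 65.8% of its windows, since a transcript model of HIST1H3J overlaps it. Enough reads for a test, a mean of at least 10, were reached by 33 members for shRNA #1, 24 for shRNA #2 and 30 for the comparison of the hairpins. Of the 33, 8 reached this mean only through shRNA #1 replicate 1. Per kilobase of the shortest transcript model, HIST1H2BK had the highest mean normalised count with NS shRNA among the members named with values in every library, at 4061, followed by HIST1H1C at 1638, HIST1H2BD at 757 and HIST1H2AC at 454, while HIST1H4C had 92.4. HIST1H2BK, HIST1H2BD and HIST1H2AC also have longer models, of up to 789 bases for HIST1H2BD and 1668 for HIST1H2AC in GENCODE. Reads on these would raise their values. The lengths of the UCSC genes used for counting were not used.

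Summed over each family, H1 gave 37.3, 40.7 and 32.4 reads per 1000000 reads on genes (RPM) in the 3 NS shRNA libraries, 122, 72.0 and 80.3 with shRNA #1 and 14.3, 15.7 and 16.1 with shRNA #2. H2B gave 76.1, 70.2 and 75.1 with NS shRNA, 169, 109 and 105 with shRNA #1 and 33.4, 40.7 and 30.9 with shRNA #2. For both families the 3 groups did not overlap, with shRNA #1 highest and shRNA #2 lowest. These sums rest on few genes. In NS shRNA replicate 1, HIST1H1C gave 35.2 of the 37.3 RPM of H1. HIST1H2BK and HIST1H2BD gave 61.0 and 10.4 of the 76.1 RPM of H2B there. HIST1H1E, the other H1 gene tested, did not keep the groups apart. How often the groups lie apart over all genes was not computed, for these sums or for the single genes below. H2A gave 8.16, 13.6 and 9.41 with NS shRNA, 68.8, 17.4 and 19.5 with shRNA #1 and 7.99, 6.82 and 8.48 with shRNA #2. H3 gave 8.36, 11.1 and 6.42 with NS shRNA, 67.3, 6.28 and 7.54 with shRNA #1 and 5.19, 6.36 and 6.44 with shRNA #2. H4 gave 2.19, 5.86 and 2.52 with NS shRNA, 53.1, 6.03 and 4.21 with shRNA #1 and 1.15, 1.10 and 2.16 with shRNA #2. In H3 the high value with shRNA #1 was that of replicate 1, and of the other two libraries 1 lay within the range of NS shRNA and 1 just below it. The shRNA #2 libraries overlapped the NS shRNA libraries in H2A and H3 and in RPM lay below them in H4. That gap in H4 was small, with 2.16 RPM in shRNA #2 replicate 3 and 2.19 in NS shRNA replicate 1. It depends on the scale. These libraries had 107 and 68 H4 reads, and dividing them by size factors of 1.33 and 0.915 reverses their order. In bulk RNA, fewer cells that express a gene and less RNA per cell cannot be told apart.

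**Figure D2:**
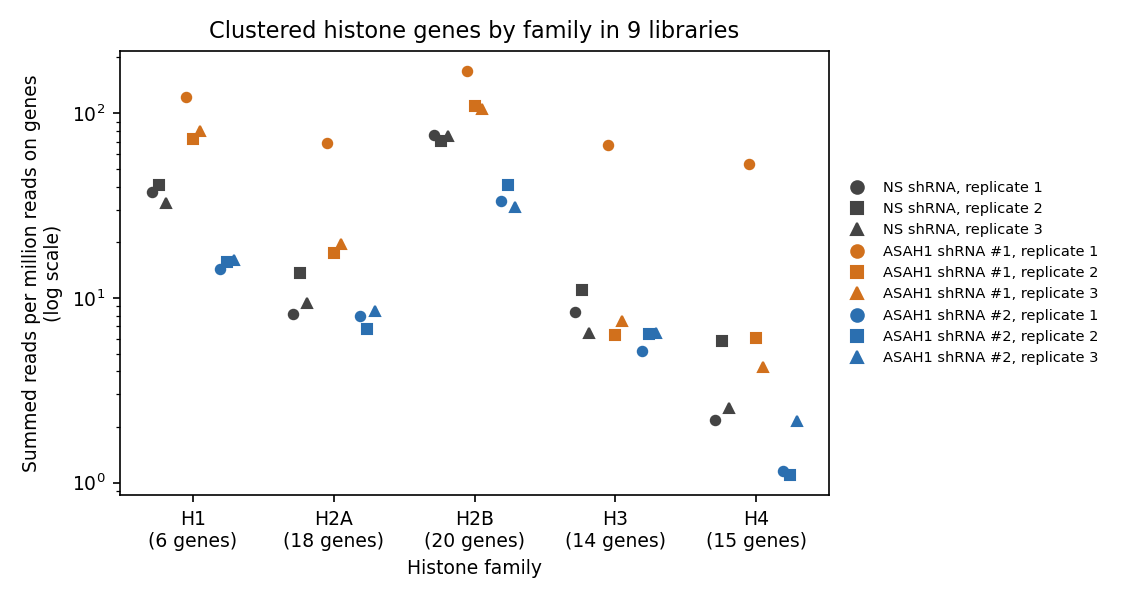
Summed RPM (vertical axis, log scale) for each histone family (horizontal axis), with 1 point per library, coloured by group and shaped by replicate. H1 and H2B, whose sums come mostly from HIST1H1C and HIST1H2BK, separate the 3 groups, whereas in H3 and H4 shRNA #1 replicate 1 stands alone at 67.3 and 53.1.

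With ASAH1 shRNA #1 compared with NS shRNA, 8 of 33 members tested rose and 0 fell at an adjusted p below 0.05 from limma, where 32.8% of all genes tested rose and 33.3% fell. None of the 33 had an unadjusted p below 0.05 in the lower direction, and edgeR and DESeq2 also gave 0 lower. The 8 were HIST1H1C, HIST1H2AC, HIST1H2BD, HIST1H2BJ, HIST1H2BK, HIST2H2BE, HIST1H4A and HIST1H4H. HIST1H4A entered the test only through its reads in replicate 1. By family, 1 of 2 H1, 1 of 10 H2A, 4 of 10 H2B, 0 of 6 H3 and 2 of 5 H4 members rose, and without replicate 1 these counts were 1, 1, 3, 0 and 1. For H3, limma gave 0 members at an unadjusted p below 0.05 and edgeR and DESeq2 also gave 0. Without replicate 1, 6 of the 8 remained higher (30.5% of all genes tested) and 1 member was lower (30.9% of all genes tested). HIST1H2BJ and HIST1H4A no longer passed, and the 1 lower was HIST2H3D, an H3 gene. With other libraries left out, 5 members were higher without NS shRNA replicate 1 and 17 without shRNA #1 replicate 3. Of the 8 members that rose with all libraries, 6 had a transcript model that ran past the stem-loop, among 10 such members tested, and 2 were among the 22 whose models end there. Without replicate 1, 5 of the 10 were higher, and of the 22 1 was higher and 1 lower. The median log2 fold change of the 33 was 1.20 with replicate 1 and 0.11 without it, against 0.00 over all genes tested in both cases. The filter favours members that are high in replicate 1, so these medians and counts are a description.

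With ASAH1 shRNA #2 compared with NS shRNA, 12 of 24 members tested fell and 0 rose, where 33.4% of all genes tested fell and 33.5% rose. None had an unadjusted p below 0.05 in the higher direction, edgeR also gave 0 higher and 12 lower, and DESeq2 gave 0 higher and 13 lower. The 12 were HIST1H1C, HIST1H1E, HIST1H2AG, HIST1H2BC, HIST1H2BD, HIST1H2BJ, HIST1H2BK, HIST1H2BO, HIST2H2BE, HIST1H3B, HIST1H3C and HIST1H4C. By family, 2 of 2 H1, 1 of 4 H2A, 6 of 8 H2B, 2 of 7 H3 and 1 of 3 H4 members fell. The median log2 fold change of the 24 was -0.92, against 0.01 over all genes tested. In 1 limma fit of all 9 libraries, whose spread includes shRNA #1 replicate 1, the 12 became 5, and HIST1H1E, HIST1H2AG, HIST1H2BC, HIST1H2BO, HIST1H3B, HIST1H3C and HIST1H4C no longer passed. Without NS shRNA replicate 2, 8 fell, and without shRNA #2 replicate 1 a single member rose. Most of the listed other RNAs without a poly(A) tail that were tested here also fell. Of 8 tested, 6 fell and 1, RNU11, rose, with a median log2 fold change of -1.68. On the log2 scale the change was -3.78 for RMRP (limma, SE 0.42, adjusted p = 1.81e-05) and -3.71 for RN7SK (limma, SE 0.44, adjusted p = 2.9e-05). Summed over the list of 20, they gave 227, 509 and 256 RPM with NS shRNA and 99.5, 71.4 and 97.8 with shRNA #2, and their part in the histone values was not tested. With shRNA #1 and without its replicate 1, the 10 listed RNAs tested had a median of -0.68, with 0 higher and 4 lower. The 33 members tested, 8 of which entered only through replicate 1, had a median of 0.11, with 6 higher and 1 lower. The 10 members whose models run past the stem-loop had a median of 0.76, with 5 higher and 0 lower. The 22 members whose models end there had a median of -0.01, with 1 higher and 1 lower. These sets were not tested against each other.

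**Figure D3:**
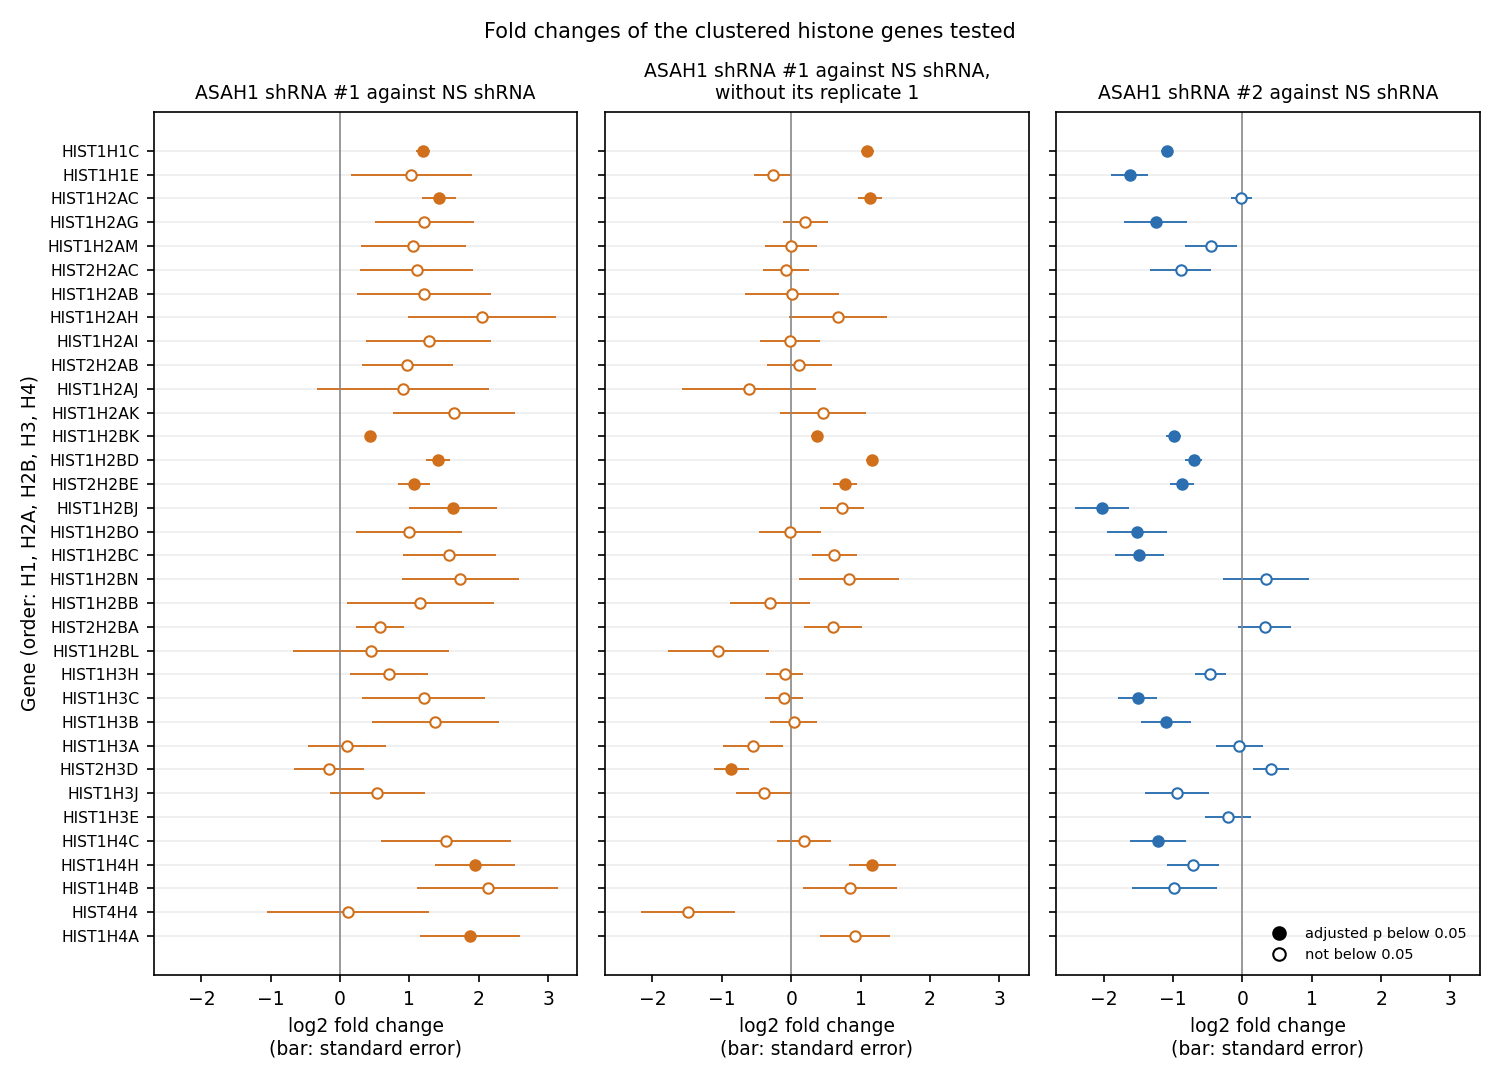
Log2 fold changes from limma (horizontal axis, bars are standard errors) of the 34 clustered histone genes tested in at least 1 of the comparisons with NS shRNA (vertical axis), with filled points for an adjusted p below 0.05. With shRNA #1 8 points are filled, without its replicate 1 7 are filled and most other points move towards 0, and with shRNA #2 12 are filled and each of these is negative.

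Of the 23 members tested in both comparisons with NS shRNA, none passed in the same direction with both hairpins, and 5 passed in opposite directions. These 5 were HIST1H1C, HIST1H2BD, HIST1H2BJ, HIST1H2BK and HIST2H2BE. Over all genes tested, 32.8% rose and 33.3% fell with shRNA #1, and 33.5% rose and 33.4% fell with shRNA #2. The shares of all genes that passed in the same or in opposite directions were not computed. Opposite calls are therefore not shown to be particular to the members, and these counts are a description. The comparisons share their NS shRNA libraries, so their values are given side by side. Values below are RPM unless stated, which puts the 9 libraries on 1 scale, and fold changes are on the log2(normalised count + 1) scale of each table.

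HIST1H1C encodes linker histone H1.2 and lies on chromosome 6 (hg38, 26055740 to 26056470, minus strand, 1 exon). It had 35.2, 37.1 and 30.6 RPM with NS shRNA, 91.3, 69.9 and 78.3 with shRNA #1 and 13.5, 15.1 and 15.3 with shRNA #2. Every library of a group lay apart from those of the other groups. HIST1H1C rose by 1.20 on the log2 scale with shRNA #1 (limma, SE 0.10, adjusted p = 6.72e-06) and 1.10 without replicate 1 (limma, adjusted p = 1.28e-05). Under shRNA #2 its log2 fold change was -1.09 (limma, SE 0.09, adjusted p = 2.54e-06).

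HIST1H1E, which encodes linker histone H1.4, behaved otherwise. It had 2.13, 3.55 and 1.84 RPM with NS shRNA, 30.3, 1.99 and 2.04 with shRNA #1 and 0.785, 0.537 and 0.785 with shRNA #2. Replicate 1 alone was high with shRNA #1, and every shRNA #2 library lay below the NS shRNA libraries. On the log2 scale shRNA #1 gave 1.03 (limma, SE 0.87, adjusted p = 0.324) and turned to -0.27 without replicate 1 (limma, adjusted p = 0.402). The value for shRNA #2 was -1.63 (limma, SE 0.27, adjusted p = 0.000363). HIST1H1T, the testis form H1t and the next H1 gene by level, had at most 3 reads in any library and was not tested.

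HIST1H2BK, an H2B gene on chromosome 6 (hg38, 27146361 to 27146855, minus strand), had the most reads of the 73 members. It had 61.0, 52.0 and 59.7 RPM with NS shRNA, 86.0, 77.3 and 73.0 with shRNA #1 and 25.2, 31.0 and 23.2 with shRNA #2. The groups did not overlap. On the log2 scale HIST1H2BK gave 0.44 with shRNA #1 (limma, SE 0.08, adjusted p = 0.000917), 0.37 without replicate 1 (limma, adjusted p = 0.00331) and -0.99 with shRNA #2 (limma, SE 0.10, adjusted p = 1.18e-05).

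HIST1H2BD, an H2B gene whose second exon lies far past the stem-loop, had 10.4, 11.1 and 10.2 RPM with NS shRNA, 39.9, 23.9 and 23.9 with shRNA #1 and 5.47, 7.13 and 5.22 with shRNA #2. The groups did not overlap. HIST1H2BD gave log2 fold changes of 1.41 with shRNA #1 (limma, SE 0.17, adjusted p = 7.03e-05), 1.17 without replicate 1 (limma, adjusted p = 4.75e-06) and -0.70 with shRNA #2 (limma, SE 0.12, adjusted p = 0.000469).

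HIST2H2BE, an H2B gene on chromosome 1 (hg38, 149884459 to 149886682, minus strand) whose single exon runs 1729 bases past the stem-loop, had 1.94, 1.82 and 2.06 RPM with NS shRNA. It had 6.22, 3.04 and 3.76 with shRNA #1 and 1.04, 0.971 and 0.866 with shRNA #2, again without overlap between groups. Its log2 fold changes were 1.07 with shRNA #1 (limma, SE 0.23, adjusted p = 0.00266), 0.78 without replicate 1 (limma, adjusted p = 0.00316) and -0.87 with shRNA #2 (limma, SE 0.18, adjusted p = 0.00128).

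HIST1H2BJ, the fifth gene with opposite calls, rested on replicate 1 for its rise. It had 20, 42 and 24 reads with NS shRNA, 222, 54 and 49 with shRNA #1 and 9, 5 and 7 with shRNA #2, not scaled to depth. With shRNA #1 it rose by 1.63 on the log2 scale (limma, SE 0.64, adjusted p = 0.0461) but missed the threshold at 0.73 without replicate 1 (limma, adjusted p = 0.0676), and it also missed it without any 1 of the 3 NS shRNA libraries. Its value with shRNA #2 was -2.02 (limma, SE 0.39, adjusted p = 0.000921), the lowest among the 24 members tested there.

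Of the H2A genes, HIST1H2AC had the most, with 5.74, 8.50 and 5.97 RPM with NS shRNA, 27.3, 13.4 and 16.2 with shRNA #1 and 6.37, 5.47 and 6.12 with shRNA #2. The shRNA #1 libraries lay above all others, and the shRNA #2 libraries overlapped those with NS shRNA. HIST1H2AC gave 1.43 on the log2 scale with shRNA #1 (limma, SE 0.24, adjusted p = 0.000583), 1.13 without replicate 1 (limma, adjusted p = 0.000395) and -0.02 with shRNA #2 (limma, SE 0.15, adjusted p = 0.931). HIST1H2AG, an H2A gene whose models end at the stem-loop, had 0.549, 0.941 and 0.946 RPM with NS shRNA, 7.81, 1.13 and 0.751 with shRNA #1 and 0.365, 0.128 and 0.483 with shRNA #2. It fell by 1.25 on the log2 scale with shRNA #2 (limma, SE 0.45, adjusted p = 0.0301), and this call was lost in 5 of 15 alternatives, among them those without NS shRNA replicate 2 or 3 or shRNA #2 replicate 2. With shRNA #1 its log2 fold change was 1.21 (limma, adjusted p = 0.158) and 0.20 without replicate 1 (limma, adjusted p = 0.612). HIST1H2AM, another H2A gene, had 0.419 to 1.03 RPM with NS shRNA, 6.38, 0.729 and 0.631 with shRNA #1 and 0.307 to 0.604 with shRNA #2. It passed in neither comparison with NS shRNA, with 1.06 on the log2 scale for shRNA #1, 0.00 without replicate 1 and -0.46 for shRNA #2.

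The H3 genes with the most reads were HIST1H3H, HIST1H3C and HIST1H3B, which encode the S-phase form of H3. HIST1H3C had 1.45, 2.37 and 1.38 RPM with NS shRNA, 24.7, 1.83 and 1.35 with shRNA #1 and 0.393, 0.613 and 0.584 with shRNA #2. Replicate 1 alone was high, and the shRNA #2 libraries lay below all others. HIST1H3C gave 1.21 on the log2 scale with shRNA #1 (limma, SE 0.89, adjusted p = 0.254), -0.11 without replicate 1 (limma, adjusted p = 0.752), 1.97 without replicate 3 (limma, adjusted p = 0.047) and -1.51 with shRNA #2 (limma, SE 0.28, adjusted p = 0.000666). HIST1H3B had 1.06, 2.40 and 1.18 RPM with NS shRNA, 24.9, 1.31 and 1.71 with shRNA #1 and 0.869, 0.639 and 0.383 with shRNA #2. With shRNA #1 it had 1.38 on the log2 scale (limma, adjusted p = 0.213) and 0.03 without replicate 1 (limma, adjusted p = 0.938). Under shRNA #2 its value on the log2 scale was -1.11 (limma, SE 0.36, adjusted p = 0.0202), a call lost in 4 of 15 alternatives, among them those without NS shRNA replicate 2 or shRNA #2 replicate 3. HIST1H3H had 1.71, 2.28 and 1.32 RPM with NS shRNA, 8.82, 1.38 and 1.92 with shRNA #1 and 1.01, 1.12 and 1.29 with shRNA #2. It passed in neither comparison, with 0.71 on the log2 scale for shRNA #1, -0.10 without replicate 1 and -0.46 for shRNA #2. HIST2H3D, on chromosome 1, had 1.29, 1.21 and 0.975 RPM with NS shRNA, 2.81, 0.653 and 0.601 with shRNA #1 and 0.926, 1.71 and 1.75 with shRNA #2. On the log2 scale its value under shRNA #1 was -0.16 (limma, adjusted p = 0.793) with all libraries and -0.86 without replicate 1 (limma, adjusted p = 0.0138).

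The H4 genes had few reads outside shRNA #1 replicate 1. HIST1H4C had 0.936, 1.67 and 0.602 RPM with NS shRNA, 19.1, 1.38 and 0.931 with shRNA #1 and 0.309, 0.281 and 0.584 with shRNA #2. It fell with shRNA #2, at -1.21 on the log2 scale (limma, SE 0.40, adjusted p = 0.0211), a call lost in 5 of 15 alternatives, among them those without NS shRNA replicate 1 or 2 or shRNA #2 replicate 1 or 2. HIST1H4H, which has models that run past the stem-loop, had 0.645, 1.49 and 0.860 RPM with NS shRNA, 11.0, 2.59 and 1.83 with shRNA #1 and 0.421, 0.383 and 0.826 with shRNA #2. With shRNA #1 each library lay above those with NS shRNA. HIST1H4H rose by 1.94 on the log2 scale with shRNA #1 (limma, SE 0.58, adjusted p = 0.0139) and by 1.17 without replicate 1 (limma, adjusted p = 0.0135). With shRNA #2 its value was -0.71, which did not pass (limma, adjusted p = 0.115). HIST1H4B had 0.226, 1.88 and 0.602 RPM with NS shRNA, 17.6, 1.51 and 0.961 with shRNA #1 and 0.280, 0.204 and 0.403 with shRNA #2. It passed in neither comparison, with 2.13 on the log2 scale for shRNA #1, 0.85 without replicate 1 and -0.98 for shRNA #2. HIST1H4A, the other H4 gene that rose with shRNA #1, had 63, 15 and 10 reads there and 3, 8 and 6 with NS shRNA. It reached the mean needed for a test only through replicate 1. Its log2 fold change was 1.87 (limma, adjusted p = 0.0438) and 0.92 without replicate 1 (limma, adjusted p = 0.139), and its call was lost in 6 of 15 alternatives, among them those without NS shRNA replicate 1 or 2 or shRNA #1 replicate 1. The rise of HIST1H4H was lost in 2 of 17, among them that without NS shRNA replicate 1.

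**Figure D4:**
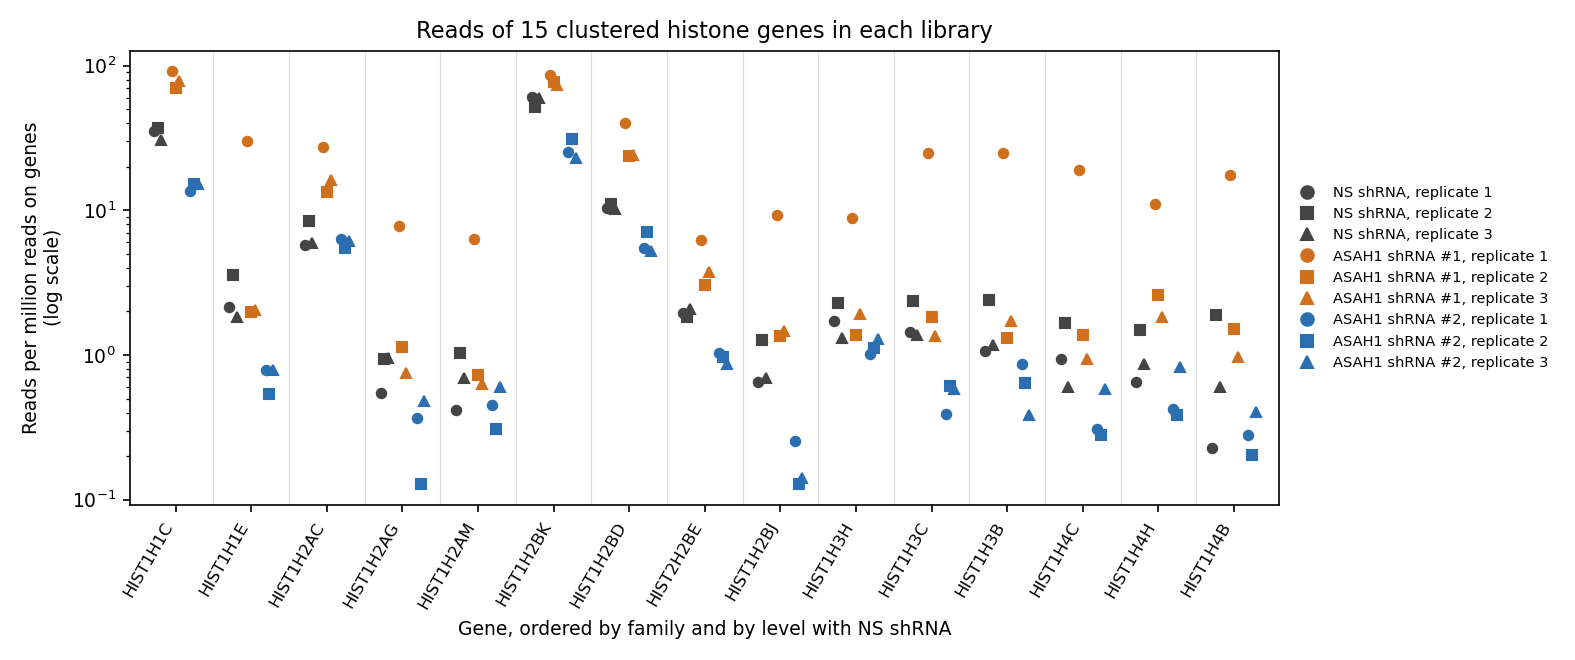
RPM (vertical axis, log scale) of 15 clustered histone genes (horizontal axis), with 1 point per library, coloured by group and shaped by replicate. HIST1H1C, HIST1H2BK, HIST1H2BD, HIST1H2BJ and HIST2H2BE keep the 3 groups apart in every library, HIST1H2BJ by a small gap between NS shRNA and shRNA #1. In HIST1H1E, HIST1H3C, HIST1H3B, HIST1H4C and HIST1H4B shRNA #1 replicate 1 stands alone. How often groups lie apart over all genes was not computed.

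The hairpins were also compared with each other on the reads of all 9 libraries by edgeR's quasi-likelihood test. Of 30 members tested, 26 were lower with shRNA #2 than with shRNA #1 and 0 were higher, where 32.5% of all genes tested were lower and 31.4% higher. None was higher at an unadjusted p below 0.05, and DESeq2 gave 16 lower and 0 higher. By family, 2 of 2 H1, 7 of 7 H2A, 8 of 9 H2B, 4 of 7 H3 and 5 of 5 H4 members were lower. Without shRNA #1 replicate 1, 16 members were lower (29.9% of all genes tested) and HIST2H3D alone was higher (28.9% of all genes tested). The 16 were 2 H1, 2 H2A, 6 H2B, 2 H3 and 4 H4 members, and each was also among the 26. Between the hairpins, HIST1H1C had a log2 ratio of shRNA #2 over shRNA #1 of -2.30 with all libraries (edgeR, adjusted p = 1.51e-08) and -2.20 without replicate 1 (edgeR, adjusted p = 3.38e-08). For HIST1H2BJ it was -4.34 (edgeR, adjusted p = 0.00104) and -2.90 without replicate 1 (edgeR, adjusted p = 8.25e-05). For HIST1H1E it was -3.81 (edgeR, adjusted p = 0.00654) and -1.37 without replicate 1 (edgeR, adjusted p = 0.00292).

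In the head-to-head pairs, the partners could both be tested for shRNA #2 in 5 of 14. HIST1H2BC and HIST1H2AC, whose starts lie 218 bases apart, had log2 fold changes of -1.49 (limma, SE 0.36, adjusted p = 0.00368) and -0.02 (SE 0.15). HIST1H2BJ and HIST1H2AG, 247 bases apart, both fell, as described above. HIST2H2BE, with -0.87, and its partner HIST2H2AC, with -0.89 (limma, SE 0.44, adjusted p = 0.0985), had similar values, and only the former passed. HIST1H2BO fell by 1.52 (limma, SE 0.43, adjusted p = 0.00954), a call lost without NS shRNA replicate 2, while its H2A partner HIST1H2AM had -0.46 (SE 0.38). The difference within a pair was not tested.

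Other genes of histone supply were read from the same limma fits, in which 32.8% of all genes tested rose and 33.3% fell with shRNA #1, and 33.5% rose and 33.4% fell with shRNA #2. Of 14 genes for the synthesis and 3′ processing of histone mRNA, 6 rose and 2 fell with shRNA #1, with a median of 0.11, and 9 rose and 0 fell with shRNA #2, with a median of 0.27. Without shRNA #1 replicate 1, 7 rose and 2 fell, with a median of 0.14. ZNF473, a zinc finger protein of the U7 complex, rose by 0.87 with shRNA #1 (SE 0.07), 0.85 without replicate 1 and 1.08 with shRNA #2 (SE 0.08). CPSF2, a subunit of the cleavage complex, rose by 0.41 with shRNA #1, 0.40 without replicate 1 and 0.73 with shRNA #2. UPF1, a helicase of RNA decay, rose by 0.41, 0.42 and 0.54 in the same order, and LSM10, a protein of the U7 complex, by 0.31, 0.35 and 0.38. SLBP, named after its values were seen, had -0.88 on the log2 scale with shRNA #1 (limma, SE 0.05, adjusted p = 3.3e-07), -0.89 without replicate 1 and 0.02 with shRNA #2 (limma, SE 0.06, adjusted p = 0.773).

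Of 16 S-phase genes, 2 rose and 14 fell with shRNA #1, with a median of -0.51, against the shares of 32.8% and 33.3% over all genes. Without replicate 1, 2 rose and 13 fell, with a median of -0.50. With shRNA #2, 3 rose and 5 fell, which is below the shares over all genes, with a median of -0.05. MCM5, a subunit of the replicative helicase, fell with both, with log2 fold changes of -1.20 (SE 0.05) with shRNA #1, -1.20 without replicate 1 and -0.83 with shRNA #2 (SE 0.06). MCM3, of the same helicase, had -0.33, -0.30 and 0.70 in the same order and passed in each. CDC6, which loads the helicase, rose by 0.13 with shRNA #1, 0.18 without replicate 1 and 0.90 with shRNA #2, and CCNE1, a cyclin of S-phase entry, by 0.44, 0.44 and 0.49.

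Among 19 histone chaperone genes, 2 rose and 9 fell with shRNA #1, with a median of -0.15, 2 rose and 7 fell without replicate 1, with a median of -0.13, and 11 rose and 3 fell with shRNA #2, with a median of 0.18. ASF1B, which carries H3 and H4, had -0.44 with shRNA #1, -0.45 without replicate 1 and -0.90 with shRNA #2 and fell in each. CABIN1, of a complex that places H3.3, fell in each as well, with -0.67, -0.68 and -0.53. IPO4, an importin that brings H3 and H4 into the nucleus, rose in each, with 0.41, 0.43 and 0.34. ATRX, of another complex that places H3.3, passed in each, with -0.49, -0.54 and 0.30.

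Histone genes outside the clusters, most of whose mRNAs carry a poly(A) tail, gave 10 tested genes of 12. With shRNA #1, 5 fell and 1, H1F0, rose, with a median of -0.36, and without replicate 1 the counts were again 5 and 1, with a median of -0.33. With shRNA #2, 3 rose and 4 fell, near the shares over all genes, with a median of 0.18. CENPA, the H3 form of centromeres, fell in each, with -0.37 with shRNA #1 (SE 0.07), -0.35 without replicate 1 and -1.07 with shRNA #2 (SE 0.09). H1FX, a linker histone made outside S phase, fell in each as well, with -0.59, -0.58 and -0.94. H2AFX, the H2A form phosphorylated at DNA breaks, had -0.74, -0.70 and -0.50, and H2AFV, an H2A.Z gene, had -0.55, -0.57 and -0.41, and both fell in each. H1F0, which encodes linker histone H1.0 and was named after its values were seen, rose by 0.83 with shRNA #1, 0.84 without replicate 1 and 0.19 with shRNA #2. Summed over these 12 genes, the RPM ran from 1879 to 2237 over the 9 libraries, and shRNA #1 replicate 1, at 2034, lay within that range.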

How the data were processed

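Per the methods, the authors used Trimmomatic 0.36 for trimming, STAR 2.7.1a for alignment of single-end reads to hg38 and htseq-count, set to the reverse strand, for counts on UCSC genes. DESeq2 1.28 then took each hairpin with the NS shRNA libraries. A different paragraph of the methods has Bowtie2 and RSEM followed by edgeR. The deposited values are a signal, a read count divided by a size factor per library, in 2 tables. The authors also deposited the fold change, its log2 value, a test score and p-values of their own comparisons, which were not used. All columns of values matched a library, with 0 left over, and 28 symbols turned into dates were read from the other table. Reads were recovered as whole numbers (within 0.1 for 100% of values), and NS shRNA reads were the same in both tables.

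Each hairpin was compared with NS shRNA with limma 3.58.1 (trend on, two-sided) after log2(value + 1). Genes entered at a mean of 10 or more, with Benjamini-Hochberg adjustment over all genes tested at 0.05. The hairpins were compared by edgeR 4.0.16 (quasi-likelihood, TMM) on recovered reads, and DESeq2 1.42.0 was an alternative. R 4.3.3 and Python 3.11.15 were used. The fits were tested on simulated data. Positions come from GENCODE v44 and hg38, promoters from RefSeq (GRCh38.p14).

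The members and lists were chosen with earlier results of these data known. Members with values in every library were the 3 with the highest mean with NS shRNA in each family and those passing in both comparisons. From each list at most 4 genes passing in both could be named, by the size of the change with shRNA #2, and SLBP and H1F0 were named beyond this. Alternatives were pseudocounts of 0.1 and 5, no filter, a mean of at least 50, limma with the trend off, rescaling to the upper quartile, both count tools on the recovered reads, 1 fit of 9 libraries, a replicate block and each library left out. Leaving shRNA #1 replicate 1 out of the filter as well was added after seeing the data.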

Additional observations from a re-analysis of the deposited data

Results flagged for a closer look

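Of the members named with values in every library, 15 could be tested between the hairpins, and the response of each of the 15 differed between ASAH1 shRNA #1 and ASAH1 shRNA #2 by the test of the difference itself, edgeR on the recovered reads of all 9 libraries, at an adjusted p below 0.05. Over all genes tested, 32.5% were lower and 31.4% higher with shRNA #2 than with shRNA #1 by that test. Expressed as log2 of shRNA #2 over shRNA #1, it came to -2.30 for HIST1H1C, -3.81 for HIST1H1E, -1.50 for HIST1H2AC, -3.03 for HIST1H2AG, -2.23 for HIST1H2AM, -2.15 for HIST1H2BD, -4.34 for HIST1H2BJ, -1.43 for HIST1H2BK and -2.01 for HIST2H2BE. It was -3.71 for HIST1H3B, -3.90 for HIST1H3C, -1.59 for HIST1H3H, -4.23 for HIST1H4B, -3.91 for HIST1H4C and -2.98 for HIST1H4H. Without shRNA #1 replicate 1, 13 of the 15 kept an adjusted p below 0.05, where 29.9% of all genes tested were lower and 28.9% higher. The exceptions were HIST1H2AM, at -0.42 (adjusted p = 0.383 from edgeR), and HIST1H3H, at -0.37 (adjusted p = 0.245 from edgeR). Over the 5 members with opposite calls, the ratio without that library was -2.20 for HIST1H1C, -1.88 for HIST1H2BD, -2.90 for HIST1H2BJ, -1.37 for HIST1H2BK and -1.69 for HIST2H2BE. Under every alternative run, 9 of the 15 kept their call. DESeq2 on the reads of all 9 libraries did not call HIST1H1E, HIST1H3B, HIST1H3C and HIST1H4C. Groups of 3 libraries are too small for a test of single outlying libraries, and none was made.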

How the results depend on the processing

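Of 8 members higher with shRNA #1, 5 (HIST1H1C, HIST1H2AC, HIST1H2BD, HIST1H2BK and HIST2H2BE) kept call and direction under every alternative run. Of 12 lower with shRNA #2, 5 did (HIST1H1C, HIST1H2BD, HIST1H2BJ, HIST1H2BK and HIST2H2BE), and of 26 lower between the hairpins, 12 did. With 1 library left out, 5 (without NS shRNA replicate 1) to 17 (without shRNA #1 replicate 3) members were higher and 0 to 1 lower with shRNA #1. With shRNA #2, 0 to 1 were higher (1 without shRNA #2 replicate 1), and between the hairpins 0 to 1 were higher and 16 to 26 lower. Leaving shRNA #1 replicate 1 out of the filter as well gave 1 lower with shRNA #1, and 1 higher and 15 lower between the hairpins. With no filter, 1 member was higher with shRNA #2 and 1 between the hairpins. In the fit of all 9 libraries 5 were lower with shRNA #2. A mean of at least 50 left 7 members to test with shRNA #2, of which 5 were lower, and 12 between the hairpins, of which 12 were lower. DESeq2 gave 16 lower between the hairpins.

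Without shRNA #1 replicate 1, with or without it in the filter, the fold change with shRNA #1 reversed to -0.27 for HIST1H1E, -0.11 for HIST1H3C and -0.10 for HIST1H3H, none of which passed there. Their highest values with 1 library left out were 1.68 and 1.22 for HIST1H1E and HIST1H3H, which did not pass, and 1.97 for HIST1H3C without shRNA #1 replicate 3, which passed (limma, adjusted p = 0.047). That of HIST1H2AC with shRNA #2 ran from -0.12 to 0.17. The cause of these changes was not tested. Replicate numbers did not pair the samples (same-number correlations of -0.32 to -0.10, and no library correlated best with its own number), and the replicate block gave 6 higher with shRNA #1, 12 lower with shRNA #2 and 21 lower between the hairpins. P-values rest on 3 libraries a group.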
